A study of Mus musculus with 5 samples.

Results

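The 10 genes described here make pyrimidines and the deoxynucleotides that DNA is built from, and were taken by symbol as a fixed list from the 24421 genes of the deposited RNA-seq tables. All 10 were present, each on 1 row: Cad, Dhodh, and Umps of de novo synthesis, Uck2 and Upp1 of uridine handling, Tk1, Tyms, and Dut of thymidylate supply, and Rrm1 and Rrm2 of ribonucleotide reductase. The study asked how the metabolism of pluripotent cells differs from that of somatic cells, and what loss of Gldc, the glycine decarboxylase of the mitochondrial glycine cleavage system, does to mouse embryonic stem cells (mESCs). RNA was sequenced from 5 libraries, 1 per group and without replicates, so no difference given here has a replicate error or a p-value, and each statement compares libraries. The groups were untreated mouse embryonic fibroblasts (MEFs, from CF-1 embryos at mid-gestation), induced pluripotent stem cells (iPSCs, somatic cells reprogrammed to pluripotency), untreated V6.5 cells (an mESC line), V6.5 cells with a non-targeting control shRNA (NTC), and V6.5 cells with an shRNA against Gldc (shGldc). By the labels, feeder-independent stem cells grew on gelatin in a serum replacement medium with leukaemia inhibitory factor and the MEFs in serum, so cell type and medium cannot be told apart. The study's methods also describe stem cells on feeders in serum, without saying which culture gave these libraries. The fibroblast markers differed unevenly between V6.5 cells and NTC. Of 7 at 1 FPKM or more in either library, 4 were at least 2-fold lower in NTC, beside 10.3% of all genes. These were Col1a1 at 20.5 and 1.24 FPKM, Col1a2 at 15.3 and 0.225, Col3a1 at 3.21 and 0, and Dcn at 1.93 and 0. Twist1 stood at 2.77 and 2.1, Thy1 at 5.63 and 6.95, and Pdgfrb at 2.42 and 2.88. The shRNA cells expressed pLKO hairpins stably, and the deposited column names the hairpin against Gldc as sh3, whose sequence was not analysed here. Genotype, sex, and the number of clones were not given in the sources used here.

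Pyrimidine rings are built on CAD, DHODH, and UMPS, which together lead from bicarbonate and glutamine to UMP, the parent of all other pyrimidine nucleotides. Cells can also take up uridine and phosphorylate it, or split it to uracil and ribose 1-phosphate. Ribonucleotide reductase removes the hydroxyl group that separates ribonucleotides from deoxynucleotides, and thymidylate synthase adds the methyl group that separates dUMP from dTMP. That methyl group comes from methylene tetrahydrofolate, the one-carbon carrier that the glycine cleavage system also makes. Several of these genes are transcribed most strongly when cells enter S phase. In bulk RNA, more cells in S phase and more RNA per cell cannot be told apart.

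Expression is given as FPKM, which scales fragment counts to transcript length and to the number of mapped fragments and so allows levels to be compared between genes. Depth estimated from the steps between low values was 24600000 fragments in MEFs and in V6.5 cells, 22100000 in iPSCs, 29000000 in NTC, and 28700000 in shGldc, the last pair being uncertain by a factor of 2. The steps searched spanned a factor of 2, so a wrong multiple would not show in any library. The 8 pluripotent markers summed to 3.28 FPKM in MEFs and to between 3753 and 7023 in the stem cell libraries. The 8 fibroblast markers summed to 6929 FPKM in MEFs and to between 7.75 and 52.2 elsewhere. The MEF library also held macrophage RNA, with 7 of 8 markers at 1 FPKM or more and a sum of 301, against 10.9 to 20.6 in the others, where Cd68 made up most of it. Gldc stood at 0.123 FPKM in MEFs, 59.7 in V6.5 cells, 70.8 in iPSCs, 74.7 in NTC, and 2.07 in shGldc, so the knockdown library matched its label.

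All 3 enzymes of de novo pyrimidine synthesis were more abundant in the stem cell libraries than in MEFs. Cad (chr5:31054780-31078479, + strand), the multifunctional enzyme that starts the ring, measured 34.4 FPKM in MEFs, 122 in V6.5 cells, 71.8 in iPSCs, 134 in NTC, and 113 in shGldc. Dhodh (chr8:109591343-109608673, - strand), which oxidises dihydroorotate at the inner mitochondrial membrane, measured 8.92 FPKM in MEFs, 47.3 in V6.5 cells, 27.7 in iPSCs, 53.03 in NTC, and 30.7 in shGldc. Umps (chr16:33954782-33967038, - strand), which turns orotate into UMP, measured 17.9 FPKM in MEFs, 65.9 in V6.5 cells, 45.3 in iPSCs, 103 in NTC, and 76.8 in shGldc. For each of the 3 genes MEFs were lowest and NTC highest. iPSCs lay below V6.5 cells, and shGldc lay below NTC. The log2 ratio, always of FPKM + 0.1, of V6.5 cells over MEFs was 1.83 for Cad, 2.39 for Dhodh, and 1.88 for Umps, and that of iPSCs over MEFs was 1.06, 1.62, and 1.34. Dhodh had the lowest ratio of shGldc over NTC among the 10 genes, at -0.79. Coordinates here and below are those of the GENCODE M21 annotation of mm10. Of the exon bases of Umps, 6.11% overlapped the antisense gene Gm15829, and for an unstranded library reads from the overlap cannot be assigned.

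Uridine handling held the gene with the widest range of levels, Upp1, and a kinase, Uck2, with a much narrower range. Uck2 (chr1:167222883-167285320, - strand), a kinase that phosphorylates uridine and cytidine, measured 62.9 FPKM in MEFs, 142 in V6.5 cells, 67.3 in iPSCs, 118 in NTC, and 89.6 in shGldc. The iPSC library was thus close to MEFs for this gene, and the log2 ratio of 0.10 became -0.22 once all ratios were centred on the median gene and -0.21 after rescaling to equal FPKM sums. Upp1 (chr11:9118103-9136170, + strand), the uridine phosphorylase that splits uridine, measured 0.983 FPKM in MEFs, 317 in V6.5 cells, 102 in iPSCs, 249 in NTC, and 369 in shGldc. It was the lowest of the 10 genes in MEFs and the highest in V6.5 cells, NTC, and shGldc. The log2 ratio was 8.19 for V6.5 cells over MEFs and 6.56 for iPSCs over MEFs, while the FPKM values themselves, without the added 0.1, differed 322-fold and 104-fold. Of 12840 genes compared between V6.5 cells and MEFs, 99.6% had a lower ratio than Upp1, and 98.7% of 13032 did so between iPSCs and MEFs. The MEF value corresponded to about 30.9 fragments, so counting error in this library is largest for Upp1, while every other value of the group rested on about 770 fragments or more.

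The promoter of Upp1 is shown because no other gene of the group differed so widely. The 250 bases before the most upstream of its 3 RefSeq starts (chr11:9117758-9118007 of GRCm38.p6, + strand, read 5′ to 3′) are given in lower case. Capitals in this and the sequences below mark motif letters found on either strand: an E2F motif (TTTCCCGC, TTTCGCGC, TTTGCCGC, or TTTGGCGC), an E-box, a CCAAT box, or a CHR element, the letters of the last 3 being given where they are found.
Upp1: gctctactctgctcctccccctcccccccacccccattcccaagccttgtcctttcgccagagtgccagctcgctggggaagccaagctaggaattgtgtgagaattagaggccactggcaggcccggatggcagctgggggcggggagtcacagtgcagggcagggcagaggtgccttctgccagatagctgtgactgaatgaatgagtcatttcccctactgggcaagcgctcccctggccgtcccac
None of these motifs occurred in the Upp1 window, which therefore has no capitals. The window ends before the GENCODE start of Upp1 at 9118103, and the bases between were not part of it. Motifs before the other RefSeq starts of Upp1 are not given.

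The paralogs of the uridine genes did not show the same values. Uck1, the second uridine-cytidine kinase, measured 18.9 FPKM in MEFs, 31.9 in V6.5 cells, 38.0 in iPSCs, 25.2 in NTC, and 44.3 in shGldc. Where Uck2 was lower in iPSCs than in V6.5 cells and lower in shGldc than in NTC, Uck1 was higher in each case. Of the 50-nt stretches of Uck1, 17.5% also occurred in other genes, Gm4482 and Umpk-ps first, which limits the certainty of its level. The ratio of Uck2 to Uck1 within a library was 4.46 in V6.5 cells and 4.67 in NTC, but 1.77 in iPSCs, 2.02 in shGldc, and 3.33 in MEFs. Uckl1, a related kinase-like protein, measured 14.2, 19.5, 13.8, 10.1, and 17.5 FPKM in the order MEFs, V6.5 cells, iPSCs, NTC, and shGldc. Upp2, the other uridine phosphorylase, stayed at or below 0.0850 FPKM in all 5 libraries, so nearly all uridine phosphorylase RNA was that of Upp1. The level of Upp1 relative to Uck2, the splitting enzyme over the salvaging kinase, was 0.0156 in MEFs, 2.22 in V6.5 cells, 1.51 in iPSCs, 2.11 in NTC, and 4.12 in shGldc.

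Thymidylate genes were also higher in the stem cells, with Dut furthest from MEFs and Tyms nearest. Tk1 (chr11:117815526-117826092, - strand), the cytosolic thymidine kinase, measured 38.3 FPKM in MEFs, 104 in V6.5 cells, 67.8 in iPSCs, 124 in NTC, and 111 in shGldc. Tyms (chr5:30058202-30073617, - strand), thymidylate synthase, measured 8.06 FPKM in MEFs, 16.4 in V6.5 cells, 12.5 in iPSCs, 14.8 in NTC, and 21.5 in shGldc. Dut (chr2:125247190-125258608, + strand), the dUTPase that makes dUMP and keeps uracil out of DNA, measured 18.0 FPKM in MEFs, 117 in V6.5 cells, 47.1 in iPSCs, 130.5 in NTC, and 149 in shGldc. Tyms was the lowest of the 10 genes in all 4 stem cell libraries, and its highest value was in shGldc. Dut took the second place among the 10 genes in shGldc and the fourth in NTC. The log2 ratio of V6.5 cells over MEFs was 1.44 for Tk1, 1.02 for Tyms, and 2.70 for Dut, against 0.82, 0.63, and 1.38 for iPSCs over MEFs. Dut RNA relative to Tyms RNA was 2.24 in MEFs, 7.16 in V6.5 cells, 3.76 in iPSCs, 8.79 in NTC, and 6.95 in shGldc. Of the 50-nt stretches of Tyms, 5.25% occurred in other genes, the pseudogene Tyms-ps first, which limits the certainty of its low level. Tk2, the mitochondrial thymidine kinase, stayed between 8.17 and 12.1 FPKM in all libraries, and the ratio of Tk1 to Tk2 ran from 4.68 in MEFs to 14.2 in NTC.

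Of the 9 promoter windows searched, which do not include Dhodh, that of Tyms held an E-box. The 250 bases before its RefSeq start (chr5:30073626-30073875, - strand) carried CACGTG from base -61 to -56, counted back from the start.
Tyms: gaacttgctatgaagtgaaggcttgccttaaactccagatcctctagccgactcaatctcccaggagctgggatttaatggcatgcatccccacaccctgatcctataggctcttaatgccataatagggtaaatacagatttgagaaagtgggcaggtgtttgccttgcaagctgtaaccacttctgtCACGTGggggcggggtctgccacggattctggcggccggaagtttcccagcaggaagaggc
An E-box lay in 6.02% of all 32851 RefSeq promoter windows of this length.

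The large and the small subunit of ribonucleotide reductase had different profiles over the libraries. Rrm1 (chr7:102441695-102469771, + strand), the large catalytic subunit, measured 52.3 FPKM in MEFs, 69.4 in V6.5 cells, 37.4 in iPSCs, 57.5 in NTC, and 52.1 in shGldc. Rrm2 (chr12:24708241-24714146, + strand), the small subunit that carries the radical and is made in S phase, measured 50.5 FPKM in MEFs, 280.0 in V6.5 cells, 144 in iPSCs, 205 in NTC, and 139.9 in shGldc. Rrm1 stayed between 37.4 and 69.4 FPKM and was lower in iPSCs than in MEFs, whereas Rrm2 was highest in V6.5 cells and lowest in MEFs. The log2 ratio over MEFs was 0.41 in V6.5 cells and -0.48 in iPSCs for Rrm1, against 2.47 and 1.51 for Rrm2. Within a library, Rrm2 stood at 0.964 times Rrm1 in MEFs, 4.04 times in V6.5 cells, 3.84 times in iPSCs, 3.56 times in NTC, and 2.69 times in shGldc. The subunits were thus near parity in MEFs, and the shGldc library was the lowest of the 4 stem cell libraries in this ratio. Rrm2b, the small subunit that p53 induces for DNA repair, was low, at 1.05 FPKM in MEFs, 0.945 in V6.5 cells, 2.07 in iPSCs, 0.441 in NTC, and 0.375 in shGldc. Stretches of 50 nt that also occur in transcripts of other genes made up 4.95% of Rrm2 and 2.27% of Rrm1.

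The promoters of the subunits are set side by side because the ratio of their levels differed between MEFs and the stem cells. The window of Rrm1 (chr7:102441445-102441694, + strand) held CCAAT from -91 to -87 and again from -45 to -41. That of Rrm2 (chr12:24708004-24708240, + strand, printed to the base before its first GENCODE exon) held CCAAT from -50 to -46.
Rrm1: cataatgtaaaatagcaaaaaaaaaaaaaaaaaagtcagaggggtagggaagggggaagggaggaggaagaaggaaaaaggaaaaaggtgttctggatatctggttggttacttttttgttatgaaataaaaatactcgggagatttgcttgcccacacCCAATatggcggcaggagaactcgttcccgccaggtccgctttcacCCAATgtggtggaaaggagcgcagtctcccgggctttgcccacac
Rrm2: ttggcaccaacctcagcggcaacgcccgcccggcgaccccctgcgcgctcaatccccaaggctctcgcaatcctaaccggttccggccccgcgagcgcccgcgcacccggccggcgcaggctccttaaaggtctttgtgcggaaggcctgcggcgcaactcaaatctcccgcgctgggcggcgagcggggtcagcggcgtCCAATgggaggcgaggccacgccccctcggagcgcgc
CCAAT occurred in 33.8% of all promoter windows. The CHR letters, which are TTTGAA, occurred in 16.0%. Of the 9 genes with a RefSeq entry, 2 held CCAAT (Rrm1 and Rrm2), 2 held CHR letters (Umps and Uck2), 1 held an E-box (Tyms), and 0 held the E2F letters searched, which 1.86% of all windows held. No 2 of the motifs overlapped in these genes. All 250 bases of the Dut window, 193 of that of Uck2, and 78 of that of Tk1 lay within the GENCODE bounds of the gene, so the sequence upstream of the Dut gene was not searched. Dhodh had no entry. In the replication list described below, 8 of the 25 matched genes held the E2F letters and 17 held CCAAT. A match is a string of letters, not a site shown to be bound.

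**Figure D1:**
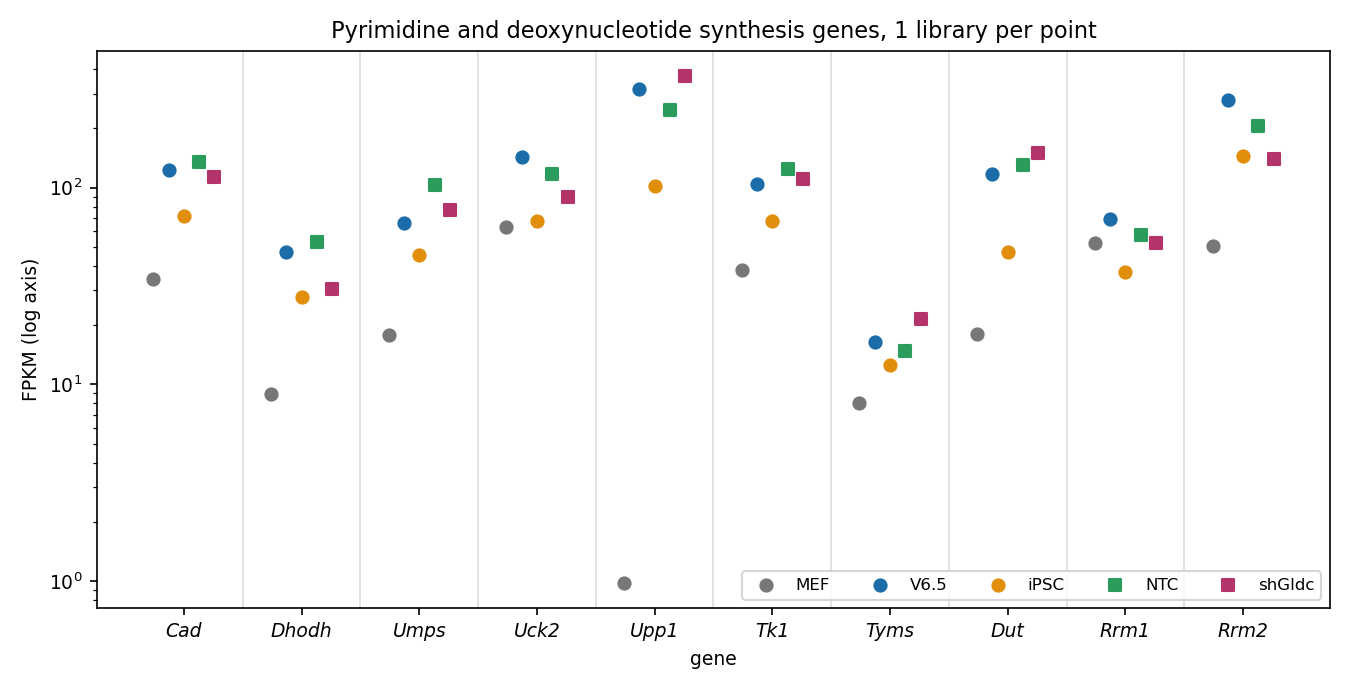
FPKM on a log axis of the 10 genes in the MEF, V6.5, iPSC, NTC, and shGldc libraries, each point being 1 library. Upp1 runs from 0.983 in MEFs to 369 in shGldc, while Rrm1 stays between 37.4 and 69.4.

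Compared with MEFs, all 10 genes were higher in V6.5 cells, and 9 of the 10 were at least 2-fold higher, Rrm1 being the exception. Among the 12840 genes with at least 1 FPKM in either library, 30.3% were past 2-fold upwards and 23.3% past 2-fold downwards. No member was 2-fold lower. The median log2 ratio was 1.85 for the 10 genes and 0.25 for all genes. With ratios centred on that median of all genes, 7 of the 10 stayed past 2-fold, and Uck2 (0.93) and Tyms (0.77) were the ones that did not. Fibroblast and macrophage markers were highest in the MEF library, as given above, apart from Cd68, at 18.7 FPKM in MEFs and 19.9 in iPSCs, and their part in these differences was not tested.

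In iPSCs, 9 of the 10 genes were higher than in MEFs, and 6 were at least 2-fold higher: Cad, Dhodh, Umps, Upp1, Dut, and Rrm2. The background was 31.5% of 13032 genes past 2-fold upwards and 21.3% downwards. Rrm1 was the gene below MEFs, and it was not 2-fold lower. Uck2 counted as higher at 0.10 and fell below 0 when ratios were centred or rescaled. The median was 1.20 for the group and 0.31 for all genes. After centring, 5 genes were past 2-fold and Cad, at 0.75, was not. This comparison and the preceding one share the MEF library, so any error in that library enters both.

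Set directly against V6.5 cells, iPSCs had less RNA of every one of the 10 genes. The log2 ratios ran from -1.64 for Upp1 to -0.38 for Tyms, with a median of -0.83 against 0.04 for all genes. Upp1, Dut (-1.32), and Uck2 (-1.08) were at least 2-fold lower, which was true of 7.44% of 12323 genes, and no member was 2-fold higher, against 10.1% of genes. Rrm2, at -0.96, lay just inside the 2-fold limit and passed it at -1.0 after centring. The endoderm or trophoblast markers differed between the same libraries: 6 of 6 were at 1 FPKM or more in iPSCs, with a sum of 426, and 3 of 6 in V6.5 cells, with a sum of 35.8. Krt8 and Krt18 made up most of that sum. Of the 6 p53 targets listed, 3 were at least 2-fold higher in iPSCs, namely Cdkn1a (1.66), Mdm2 (1.51), and Phlda3 (1.68), and Sesn1 was lower, at -0.89. The fibroblast markers summed to 52.2 FPKM in V6.5 cells and 24.6 in iPSCs. Of 7 at 1 FPKM or more in either library, 4 were at least 2-fold lower in iPSCs, among them Col1a1 at 20.5 and 1.68. That compares with 7.44% of all genes, and 1 marker was 2-fold higher, Twist1 at 2.77 and 11.8, beside 10.1%. Thy1, at 5.63 and 8.30, was also higher in iPSCs. Of the 8 pluripotent markers, 6 were lower in iPSCs, none of them 2-fold, with a median of -0.32. The part of these in the lower values of the 10 genes was not tested.

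**Figure D2:**
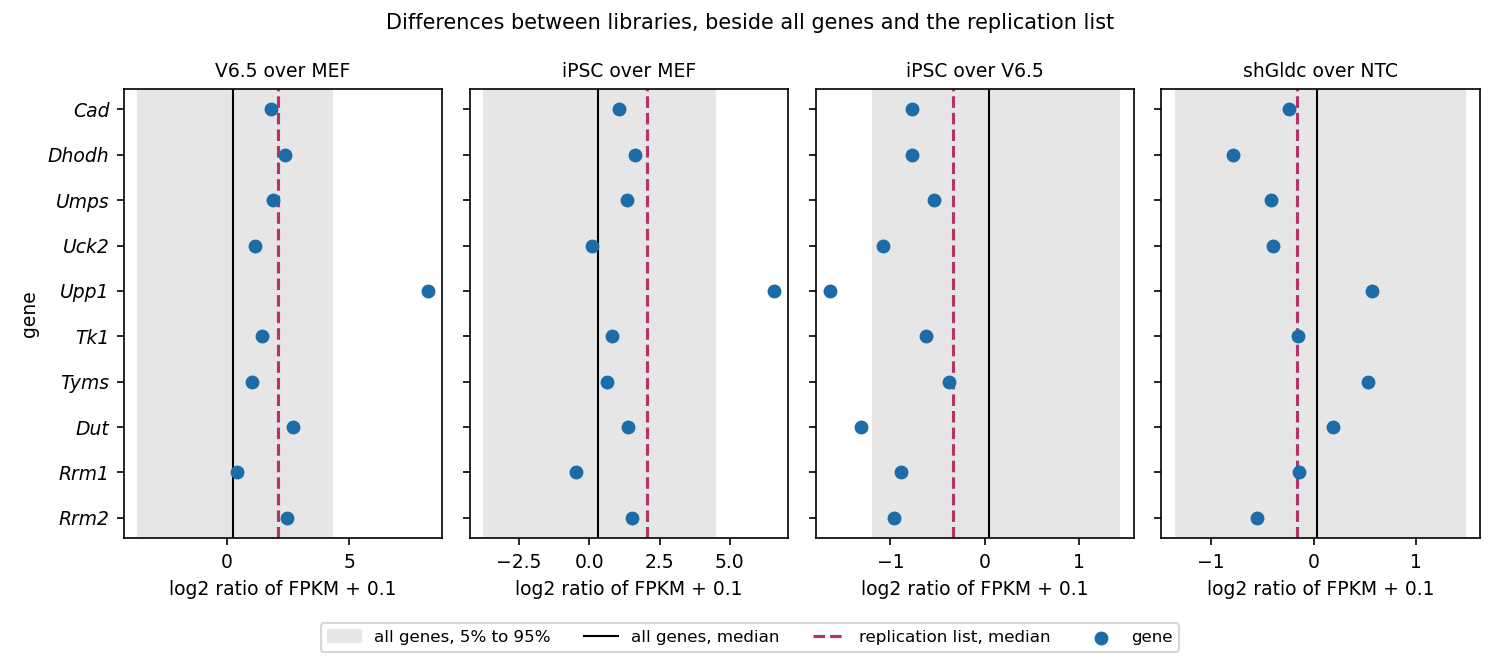
Log2 ratio of FPKM + 0.1 for the 10 genes in 4 comparisons, with the range from the 5th to the 95th percentile of all genes in grey, their median as a solid line, and the median of the replication list as a dashed line. The 10 points lie right of 0 for V6.5 cells over MEFs, left of 0 for iPSCs over V6.5 cells, and on both sides for shGldc over NTC.

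With shGldc against NTC, no member was 2-fold higher or lower, while 8.97% of 11969 genes were 2-fold higher and 7.68% were 2-fold lower. Upp1 (0.57), Tyms (0.53), and Dut (0.19) were higher in shGldc. The other 7 genes were lower, from -0.79 for Dhodh and -0.55 for Rrm2 to -0.14 for Rrm1, and the median was -0.20 against 0.04 for all genes. For scale, log2 ratios between NTC and V6.5 without shRNA had a robust SD of 0.594 across all genes, which exceeded the size of 9 of the 10 differences, all but that of Dhodh. That SD spans genes of all levels and libraries from separately made tables, so it is not an error estimate for these 10 genes. The 6 p53 targets listed were all higher in shGldc, 2 of them at least 2-fold (Ccng1 at 1.14 and Phlda3 at 1.69), while Trp53 itself, at 0.03, lay at the median of all genes. The endoderm or trophoblast markers summed to 29.4 FPKM in NTC and 225 in shGldc, with Cdx2 at 5.41 and 33.3. Of the 8 pluripotent markers, 7 were lower in shGldc, none of them 2-fold, with a median of -0.56 and values of -0.77 for Sox2 and -0.41 for Pou5f1, while Dppa5a was at 0.32. The part of these in the values of the 10 genes was not tested.

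The NTC and shGldc values come from a table made separately from that of the other libraries, so ratios to untreated V6.5 cells include any difference between the tables. Of the 10 genes, 5 were higher and 5 lower in NTC than in V6.5 cells, and none was 2-fold apart, with a range from -0.45 for Rrm2 to 0.64 for Umps. The background was 4.99% of 12048 genes past 2-fold upwards and 10.3% downwards. In shGldc over V6.5 cells, 1 gene was 2-fold lower, Rrm2 at -1.0, and none was 2-fold higher, against 13.9% and 9.89% of 12237 genes. The Rrm2 value sat at the limit itself, and the gene was not past it with a pseudocount of 1, after rescaling, or after centring. The remaining 9 ratios lay between -0.67 for Uck2 and 0.39 for Tyms. With V6.5 cells as reference, Upp1 was 0.35 lower on the log2 scale in NTC and 0.22 higher in shGldc, so untreated cells fell between the shRNA lines for this gene.

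The wider pathway of pyrimidine and deoxynucleotide metabolism was described with 43 further genes, from CTP synthesis to breakdown and transport. Of the 36 with at least 1 FPKM in V6.5 cells or MEFs, 13 were at least 2-fold higher and 3 lower in V6.5 cells, beside 30.3% and 23.3% of all genes compared, and the median was 0.70 against 0.25 for all genes. In iPSCs over MEFs, 14 of 37 were higher and 4 lower, beside 31.5% and 21.3% of all genes, with a median of 0.56 against 0.31. In iPSCs over V6.5 cells, where the 10 genes had the median of -0.83 given above, the wider list had 6 of 35 at least 2-fold higher and 1 lower, beside 10.1% and 7.44% of all genes, and a median of 0.14 against 0.04. In shGldc over NTC, 1 of 33 was 2-fold higher and 3 were lower, beside 8.97% and 7.68% of all genes, and the median of 0.04 was also that of all genes.

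Around thymidylate and deoxynucleotides, Dctpp1, which hydrolyses dCTP and modified deoxycytidine triphosphates, measured 42.2 FPKM in MEFs, 446 in V6.5 cells, 293 in iPSCs, 618 in NTC, and 512 in shGldc. Dtymk, the kinase that takes dTMP to dTDP, measured 44.0 FPKM in MEFs, 130.1 in V6.5 cells, 130.2 in iPSCs, 177 in NTC, and 156 in shGldc. Both were lowest in MEFs. Samhd1, which degrades deoxynucleotide triphosphates, went the other way, with 20.6 FPKM in MEFs, 12.2 in V6.5 cells, 9.08 in iPSCs, 15.0 in NTC, and 13.2 in shGldc. Rrm2 RNA was 2.45 times that of Samhd1 in MEFs, and 23.0 times in V6.5 cells, 15.9 times in iPSCs, 13.7 times in NTC, and 10.6 times in shGldc. The level of the gene that makes deoxynucleotides thus exceeded that of the gene that degrades them in every library, and by the least in MEFs.

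Among salvage genes, Cda, cytidine deaminase, measured 0.468 FPKM in MEFs, 5.63 in V6.5 cells, 2.75 in iPSCs, 1.55 in NTC, and 1.49 in shGldc. Uprt, a homologue of uracil phosphoribosyltransferase, was above 1 FPKM in MEFs alone, at 1.56, and was listed at 0 in NTC. Nme3, a nucleoside diphosphate kinase, measured 6.88, 30.7, 20.7, 27.0, and 42.2 FPKM from MEFs to shGldc, but 99.7% of its exon bases overlap other genes, so its value is uncertain. In the breakdown group, Nt5m, the mitochondrial deoxyribonucleotidase that removes phosphate from dTMP and dUMP, measured 12.5 FPKM in MEFs, 4.20 in V6.5 cells, 6.69 in iPSCs, 3.36 in NTC, and 11.5 in shGldc. Its log2 ratio in shGldc over NTC was 1.74. Of the wider list at 1 FPKM or more in either library, Nt5m alone was at least 2-fold higher in shGldc. Cmpk2 (1.82) and Slc28a3 (1.74) were under 1 FPKM in both.

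Of 9 nucleoside and nucleotide transporters listed, 7 reached 1 FPKM in NTC or shGldc, and of these 3 were at least 2-fold lower in shGldc than in NTC and none was 2-fold higher, beside 7.68% and 8.97% of all genes. Slc29a1, the equilibrative transporter that carries uridine and other nucleosides across the plasma membrane, measured 13.4 FPKM in MEFs, 151 in V6.5 cells, 236 in iPSCs, 295 in NTC, and 73.2 in shGldc. The ratio of shGldc over NTC was -2.01, the lowest of the wider list, and shGldc was also below untreated V6.5 cells, at -1.05 across the separately made tables. Slc29a3, a lysosomal nucleoside transporter, measured 7.59, 2.63, 3.37, 3.89, and 1.86 FPKM from MEFs to shGldc, a ratio of -1.03 in shGldc over NTC. Slc25a36, a mitochondrial carrier of pyrimidine nucleotides, measured 4.33, 9.99, 23.7, 10.7, and 5.14 FPKM in the same order, a ratio of -1.05. These were the 3 transporters past 2-fold. Slc28a1, a concentrative transporter of pyrimidine nucleosides, measured 0.0562 FPKM in MEFs and 2.76 to 7.93 in the stem cell libraries. Slc29a2, another equilibrative transporter, measured 1.83 FPKM in MEFs and 6.08 to 12.3 elsewhere. The ratio of Upp1 to Slc29a1 within a library was 0.0732 in MEFs, 2.1 in V6.5 cells, 0.430 in iPSCs, 0.845 in NTC, and 5.04 in shGldc.

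**Figure D3:**
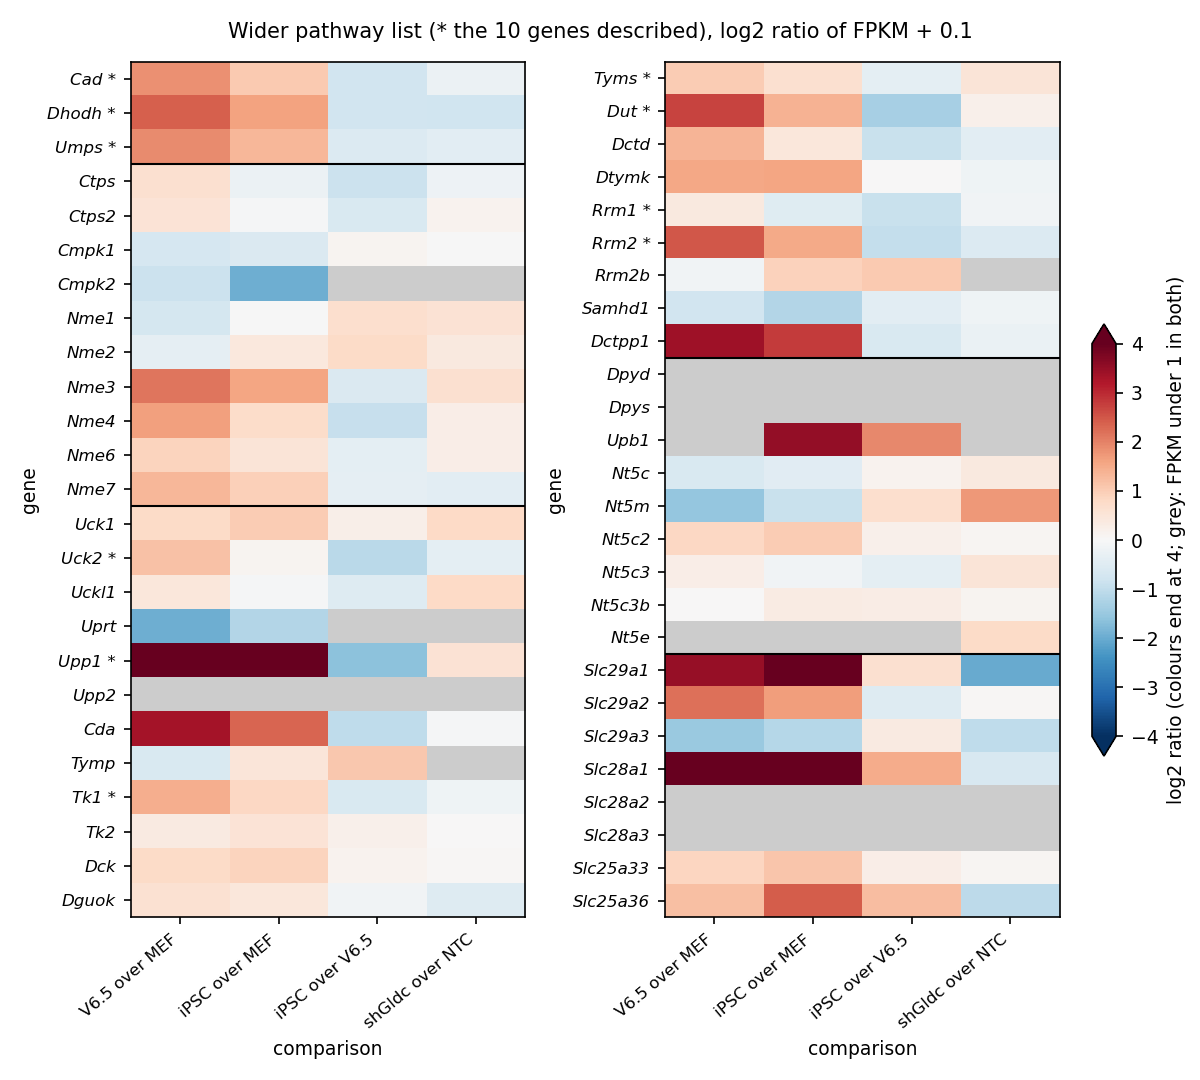
Log2 ratio of FPKM + 0.1, as colour, for 51 genes of the wider pathway list in 4 comparisons, with black lines between the functional groups, asterisks on the 10 genes described, and grey where both libraries were under 1 FPKM. Slc29a1 is at 3.48 for V6.5 cells over MEFs and at -2.01 for shGldc over NTC.

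The machinery that uses deoxynucleotides was compared as a list of 32 replication genes, such as the Mcm helicase subunits, Pcna, and the replicative polymerases. In V6.5 cells over MEFs, 31 of the 32 were at least 2-fold higher, from 0.83 for Pola1 to 3.27 for Cdt1, with a median of 2.1, beside 30.3% of all genes past that limit. In iPSCs over MEFs, 28 were, from 0.61 for Pola1 to 2.89 for Cdt1, with a median of 2.04, beside 31.5% of all genes. Of the 10 synthesis genes, 6 lay below the replication median in V6.5 cells and 9 in iPSCs, Upp1 being the gene above it. In iPSCs over V6.5 cells, the replication list had a median of -0.34 with 0 genes past 2-fold, where 10.1% of all genes were past it upwards and 7.44% downwards, and all 10 synthesis genes lay below that median. The lowest relative to it were Upp1 (-1.295), Dut (-0.97), and Uck2 (-0.74). In shGldc over NTC the replication median was -0.16, again with 0 genes past 2-fold where 8.97% and 7.68% of all genes were, and the 10 genes divided 5 below and 5 above it.

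Of 20 E2F, Rb, and Myc family regulators, 8 were at least 2-fold higher and 3 lower in V6.5 cells over MEFs, and 9 and 2 in iPSCs over MEFs. The shares of all genes were 30.3% and 23.3% in the first comparison and 31.5% and 21.3% in the second. Myc was lowest in both comparisons, at -3.83 and -2.74, with 31.3 FPKM in MEFs, 2.11 in V6.5 cells, 4.61 in iPSCs, 19.1 in NTC, and 8.30 in shGldc. Mycn was highest in V6.5 cells, at 5.45, with 0.709 FPKM in MEFs, 35.3 in V6.5 cells, 24.3 in iPSCs, 48.5 in NTC, and 29.0 in shGldc. Mybl2, a Myb factor of proliferating cells, was highest in iPSCs over MEFs, at 4.94, and lowest in shGldc over NTC, at -1.35. Its level was 8.64 FPKM in MEFs, 255 in V6.5 cells, 268 in iPSCs, 369 in NTC, and 145 in shGldc. In shGldc over NTC, 2 of the 20 were 2-fold higher, with Mxd1, a Myc antagonist, at 1.61, and 3 were lower, beside 8.97% and 7.68% of all genes. In iPSCs over V6.5 cells, 3 were 2-fold higher, with Mxd1 at 1.32, and 2 were lower, with E2f8 at -1.12, beside 10.1% and 7.44% of all genes.

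**Figure D4:**
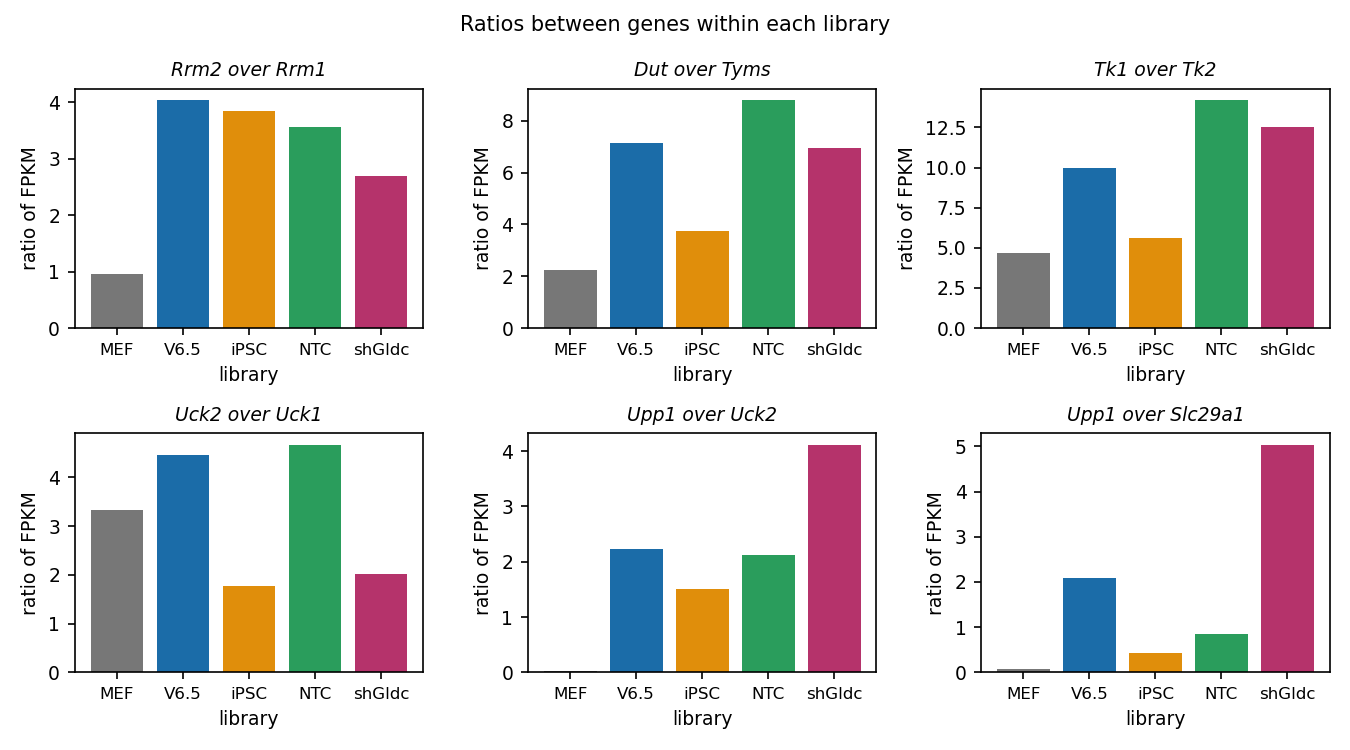
Ratio of FPKM between pairs of genes within each of the 5 libraries, with bars starting at 0. Rrm2 over Rrm1 is 0.964 in MEFs and 2.69 or more in the stem cells, and Upp1 over Slc29a1 is 5.04 in shGldc and 2.1 or less elsewhere.

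Profiles over the 5 libraries, centred within each table on the log2 scale, were compared across 13656 genes by Euclidean distance. Nearest to Upp1 were Wfdc2 (distance 0.337), Gdf3 (0.440), Fam25c (0.451), Alpl (0.544), and Triml2 (0.568). Alpl, the alkaline phosphatase used to stain pluripotent colonies, measured 0.197 FPKM in MEFs, 143 in V6.5 cells, 42.2 in iPSCs, 163 in NTC, and 248 in shGldc. Gdf3, a TGF-beta family ligand of pluripotent cells, measured 0.105, 44.8, 21.8, 52.9, and 73.3 FPKM in the same order. Like Upp1, both were higher in V6.5 cells than in iPSCs and higher in shGldc than in NTC, which follows from their choice by likeness to Upp1. Of the 8 pluripotent markers listed, 7 were lower in shGldc than in NTC. Nearest to Rrm2 were Ralgps2 (0.0320), Ankrd6 (0.0772), Bcl3 (0.118), 9530077C05Rik (0.130), and Crocc (0.151), none of them a gene of the replication list. Ralgps2, the nearest, measured 0.980 FPKM in MEFs, 5.80 in V6.5 cells, 3.0 in iPSCs, 4.08 in NTC, and 2.69 in shGldc. The distances describe 5 libraries and share their depth and composition.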

How the data were processed

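RNA-seq was analysed for 5 mouse libraries, 1 per group. The authors mapped reads to mm10 with TopHat2 (v2.1.0), assembled transcripts with StringTie (v1.3.4d), and deposited FPKM values from Ballgown, which are per kilobase and per 1000000 mapped fragments, in 2 separately made tables of 3 and 2 libraries. The submitters' processing notes also list mm9 and SAMtools (v1.7). The annotation, the strand setting, and the filters were not given in the sources used here. Log2 ratios used FPKM + 0.1, on genes that reached 1 FPKM in either of the libraries compared. A gene was called at a 2-fold ratio. With 1 library per group there was no test. The members and lists were chosen with earlier results of these data known. Named genes were the 10 members, pathway genes past 2-fold in both stem cell types over MEFs or in shGldc over NTC, close paralogs, Samhd1, the extremes of the regulator and replication lists, and the 5 nearest profiles of Upp1 and Rrm2, and some genes that this rule names are not reported here. Depth came from the steps between low FPKM values of 5723 genes with a single transcript. Gene positions and 50-nt shared stretches came from GENCODE M21, and promoters from RefSeq (GRCm38.p6). Ratios and depth were tested on simulated data, with simulated depths inside the range searched, so that test could not show a wrong multiple. Alternatives were pseudocounts of 1 and 0.01, rescaling to equal FPKM sums, centring on the median, no filter, and a minimum FPKM of 5. Python 3.11.15, numpy 2.4.6, pandas 2.3.3, and matplotlib 3.10.9 were used.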

Additional observations from a re-analysis of the deposited data

Results flagged for a closer look

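Rrm1 is listed because it lay on opposite sides of MEFs in V6.5 cells and iPSCs: its log2 ratio was 0.41 in V6.5 cells and -0.48 in iPSCs, a difference of -0.89 (iPSCs minus V6.5 cells). With 1 library per group the difference was not tested. The FPKM values were 52.3 in MEFs, 69.4 in V6.5 cells, and 37.4 in iPSCs.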

How the results depend on the processing

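No paired analysis was possible because each group was 1 library. Across 6 alternatives, 141 of the 144 values that summarise the 10 genes or the pathway list (counts past 2-fold and medians) stayed within 1.5 times the count or within the robust SD of 0.594. The exception was the count of genes at least 2-fold lower in shGldc over V6.5 cells, which was 1 (Rrm2) and became 0 with a pseudocount of 1, 0 after rescaling to equal FPKM sums, and 0 after centring. By the rule for counts, the smaller numbers of genes past 2-fold over MEFs after centring, given above, also counted as unchanged. Of 961 values of single named genes, 12 moved by more than that SD, 9 with a pseudocount of 1 and 3 with 0.01, and 0 of those past 2-fold changed sign. Centring and rescaling shifted ratios by less than that SD, and the filters leave the ratio of a gene unchanged. Only the pseudocounts could thus move a single gene that far, so these totals do not measure robustness. The ratio of Upp1 in V6.5 cells over MEFs was 7.32 with a pseudocount of 1, and that in iPSCs over MEFs was 5.70, since Upp1 in MEFs was near 1 FPKM. Among smaller ratios, those of Uck2 in iPSCs over MEFs, Dtymk in iPSCs over V6.5 cells, and Tk2 in shGldc over NTC changed sign with scaling, at 0.10, 0.00, and 0.02 as reported and at -0.22, -0.04, and -0.02 after centring. The medians of the 10 genes over V6.5 cells in NTC and in shGldc were below 0.01 in size, so their sign carries no direction.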
